A study of Arabidopsis thaliana with 12 samples.

Results

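A set of 184 Arabidopsis thaliana leaf probe sets shared 1 rule: their level was higher with sodium sulfide (Na2S) than with water in wild type, and lower with Na2S than with water in the mutant des1-1. A probe set is a group of short array probes read together, in most cases as 1 transcript. Its level is a log2 value, so a difference of 1 is a factor of 2. The members were chosen from the 4 group means of these arrays, with Na2S minus water of at least 0.8 in wild type and at most -0.8 in des1. The rule took 184 of the 22746 probe sets tested (0.809%). Of these, 84 were paired with exactly 1 gene, 3 with several and 97 had no gene listed in the annotation used here. Members with several genes or none are counted below and not named, and the share with 1 gene was 45.7%, beside 59.4% of all probe sets tested.

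Leaves came from soil-grown plants of 30 days, all in the Col-0 background. Both genotypes, wild type and des1-1, had 20 days of growth and then 10 days of watering with water or with Na2S, labelled as 200 mM. Each of the 4 groups had 3 arrays. The des1-1 line (SALK_103855) carries a T-DNA insertion in DES1 and is the single mutant line of the series, with neither another allele nor a rescued line. DES1 is an L-cysteine desulfhydrase of the cytosol, which splits cysteine into sulfide, ammonia and pyruvate. DES1 transcript is not analysed here, so the labels of des1-1 were not checked against that gene. The untreated groups had plain water, so effects of sulfide cannot be told apart from those of sodium or of other properties of the solution. The design text calls the replicates biological.

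Sulfide is both a substrate for making cysteine in plants and a signal that acts on proteins, and DES1 is one source of it in the cytosol. Some of the annotated members, a few for each theme, have known parts in leaf ageing, transport, protein turnover, calcium sensing and the attachment of sugars to small molecules. Senescing leaves break down their own proteins and lipids and export sugars and amino acids to the rest of the plant. These are background facts about the genes and not results of the arrays.

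Correlations between arrays of a group, taken across probe sets, ran from 0.993 to 0.997, and those between the untreated genotypes from 0.945 to 0.948. Array medians lay between 5.71 and 5.8, and no pair of arrays held identical values. Averaged over the members, the departure of an array from its group mean ran from -0.0351 (des1 Na2S replicate 2) to 0.0371 (des1 water replicate 3). As a check of the tissue, RCA, the Rubisco activase gene of leaf mesophyll and 1 of 4 mesophyll markers with a probe set, had means of 14.21 to 14.54 in the 4 groups. FMA of the guard cell lineage had means of 5.97 to 6.56. TRY, which represses trichome fate, went in wild type from 6.37 ± 0.212 (SD, n = 3) to 9.06 ± 0.0577 with Na2S. In des1 it was at 8.15 ± 0.2 with water and 8.79 ± 0.104 with Na2S, and its part in the members' values was not tested. The markers fixed for epidermis, phloem, xylem, root and flower had no probe set used here. In leaf tissue, fewer cells of a type and less RNA per cell cannot be told apart.

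**Figure D1:**
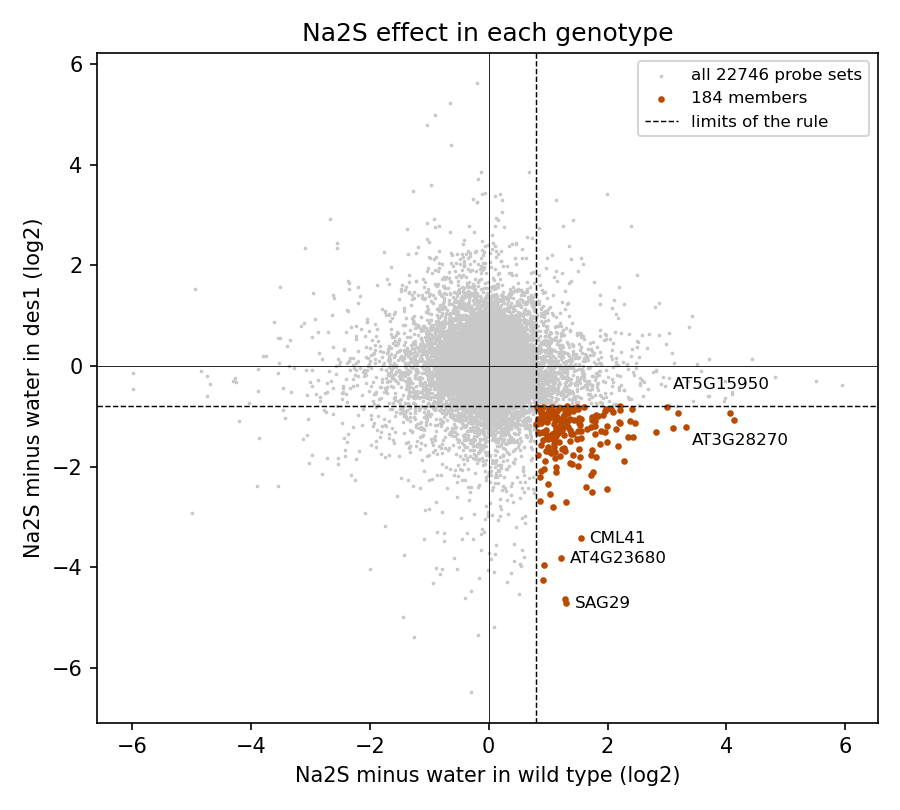
Difference between Na2S and water in wild type (horizontal axis, log2) against that in des1 (vertical axis, log2) for all 22746 probe sets (grey) and the 184 members (orange), with the limits of the rule dashed. The members fill the corner that the rule defines, with SAG29 at a des1 fall of 4.72 and AT5G15950 at a wild type rise of 3.0.

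Most members shared an order of the 4 groups, which the rule largely sets. Where the treated genotypes differ by less than the limit of the rule, untreated wild type must be lowest and untreated des1 highest. At least 156 of the 184 members met this condition. The order of the treated groups between themselves is not fixed by the rule. Untreated wild type had the lowest mean and untreated des1 the highest in 181 of 184 members, and both treated groups lay between them. In 167 members the order from low to high was untreated wild type, treated des1, treated wild type and untreated des1. In 14 members the treated groups stood the other way round, and in 3 members treated des1 was the lowest group. Those 3 were AT4G23680, AT2G38180 and a probe set with no gene listed. All these comparisons use the group means that chose the members, so the counts describe the set and were not tested.

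Relative to its own mean of 12 arrays, the median member stood at -1.14 in untreated wild type, 0.14 in treated wild type, 1.13 in untreated des1 and -0.11 in treated des1. Under water, des1 exceeded wild type by 1.19 to 5.93 (median 2.32), and 128 members differed by at least 2, a factor of 4. The 3 untreated des1 arrays all lay above the 3 untreated wild type arrays in 183 members, against 25.0% of all probe sets. In 182 members the treated and untreated arrays lay apart in both genotypes and in opposite directions, against 7.04% of all probe sets. The rule chose the members on those contrasts, so nothing is read from either share.

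**Figure D2:**
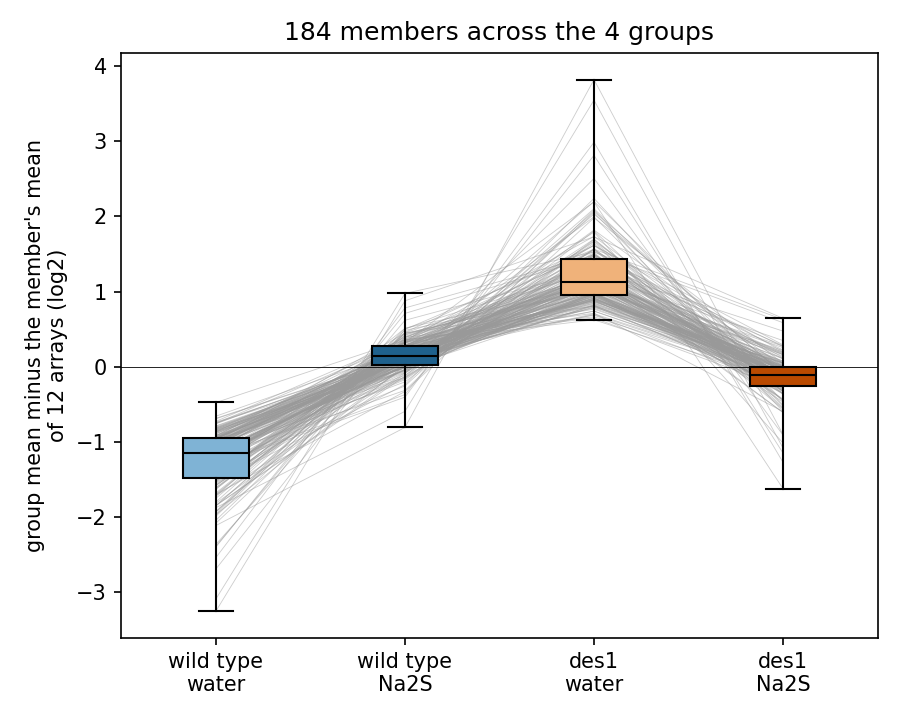
Group means of the 184 members, each minus the member's own mean of 12 arrays (log2), as thin lines, with boxes for the quartiles and median and whiskers to the lowest and highest member. Every untreated wild type value lies below 0 (highest -0.475) and every untreated des1 value above 0 (lowest 0.624), with the treated groups around 0.

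The rule does not directly use the genotype difference averaged over water and Na2S, since with equal group sizes it is orthogonal to both Na2S effects. On this measure 182 of the 184 members were higher in des1 (limma adjusted p under 0.05 over all probe sets) and 0 were lower. Over all probe sets 16.2% were called higher and 17.1% lower. The members' median was 1.04, beside -0.0017 over all probe sets, and all 184 lay above 0. The average joins a large positive difference under water with a small and mostly negative one under Na2S (median -0.26). It is a statement about both waterings together. For each member it equals the genotype difference under Na2S plus the mean of the wild type rise and the des1 fall. The rule sets that mean at 0.8 or more. Over all probe sets the genotype difference under Na2S had quartiles of -0.113 and 0.0933. A call of higher was thus largely set by the rule, and the 182 calls are not independent of it.

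The 2 members that did not pass were AT2G38180 and psbI. AT2G38180 had an average difference of 0.117 ± 0.0921 (SE, limma adjusted p = 0.394), where treated des1 lay below treated wild type by 0.95. The plastid gene psbI, for a small subunit of photosystem II, had 0.43 ± 0.207 (adjusted p = 0.13). Its 3 untreated des1 arrays spread widely (SD 0.821 around 10.12), the largest SD of any member in that group. Both are named after their values were seen. The largest average difference was that of SAG29 (2.92 ± 0.102, adjusted p = 6.24e-13), followed among members of 1 gene by AT5G19875 (1.82 ± 0.0809), AT4G33040 (1.79 ± 0.0804), AT5G15950 (1.76 ± 0.0704) and AT3G28270 (1.75 ± 0.0691). Among members of 1 gene, the smallest that passed were those of AT1G51340 (0.43 ± 0.11, adjusted p = 0.00492), AT5G57610 (0.55 ± 0.073), AT4G23680 (0.57 ± 0.0898), AT2G41000 (0.59 ± 0.0783) and AT1G33260 (0.60 ± 0.0768).

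**Figure D3:**
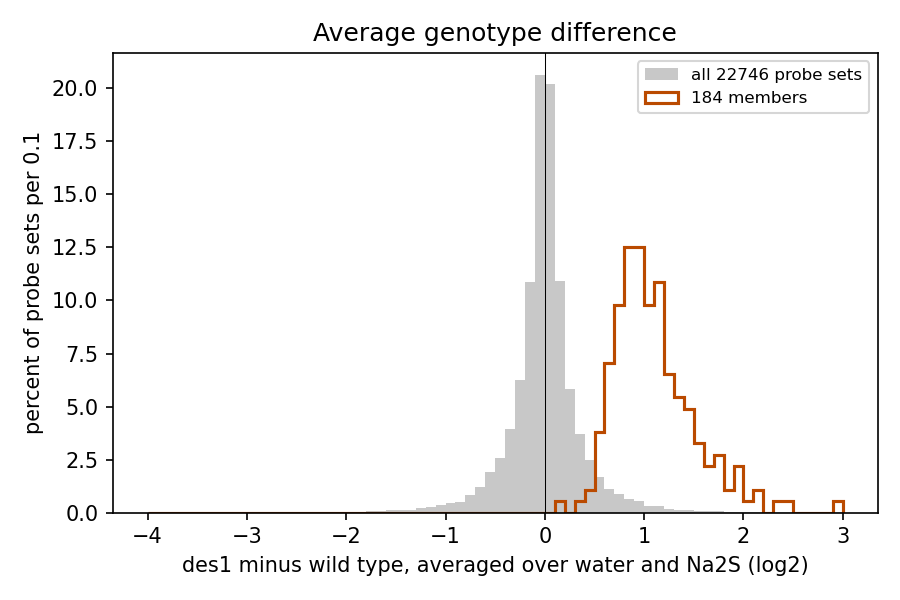
Distribution of the genotype difference averaged over both waterings (des1 minus wild type, log2) for all 22746 probe sets (grey bars) and the 184 members (orange outline), as percent of probe sets per bin. The members lie between 0.117 and 2.92 with a median of 1.04, and all probe sets centre near 0.

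Genes known from ageing leaves and nutrient export gave 5 members. Untreated des1 was their highest group, as it was in all 184 members. SAG29, a sucrose transporter of senescing leaves also called SWEET15, read 5.1, 5.01 and 5.01 in untreated wild type and 6.32, 6.21 and 6.5 in treated wild type. In des1 it read 10.67, 10.99 and 11.24 with water and 5.99, 6.5 and 6.26 with Na2S. Only the untreated des1 arrays stood far from the others, and the arrays of the treated groups overlapped. Its level was 60.8-fold higher in untreated des1 than in untreated wild type, 2.47-fold higher with Na2S in wild type and 26.3-fold lower with Na2S in des1.

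PPDK, pyruvate orthophosphate dikinase, which serves nitrogen export from ageing leaves, read 8.75, 8.68 and 8.76 in untreated wild type and 10.58, 10.63 and 10.58 after Na2S. It read 11.63, 11.81 and 11.76 in untreated des1 and 10.2, 10.21 and 10.16 in treated des1. The 4 groups did not overlap, and treated des1 sat below treated wild type by 0.41. AT1G11700 and AT4G26950, which encode proteins of a senescence regulator family, differed by 1.73 and 1.53 with Na2S in wild type and by -1.77 and -1.82 in des1. AT4G26950 was dim in untreated wild type (3.59 ± 0.32, SD, n = 3), below the lower quartile of all probe sets there (3.78). AT3G14067, a subtilisin-like protease of ageing leaves, differed by 1.10 and -1.48. All 5 passed the average test (0.81 to 2.92), as did 82 of the 84 members of 1 gene. A pass therefore does not set this group, or any group below, apart from the other members. Roles here and below were assigned by hand from general knowledge, for 47 of the 84 members of 1 gene, after their values were seen.

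Of 13 senescence genes listed by locus, 4 had a probe set and SAG29 was the only member. The other 3 did not share its direction in wild type. With Na2S, WRKY53, a regulator of leaf ageing, differed there by -0.38, WRKY6 by -0.27 and SAG101 by -0.27. In des1 they differed by -0.67, -0.57 and -0.63 in the same order, which is the direction of SAG29 there. On the average genotype difference 3 of the 4 were higher in des1 (WRKY53 by 0.68 and WRKY6 by 0.54), 0 were lower and SAG101 differed by 0.053 without passing, with a list median of 0.61. Over all lists, 52 of 220 loci had a probe set and SAG29 was the only member among them.

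**Figure D4:**
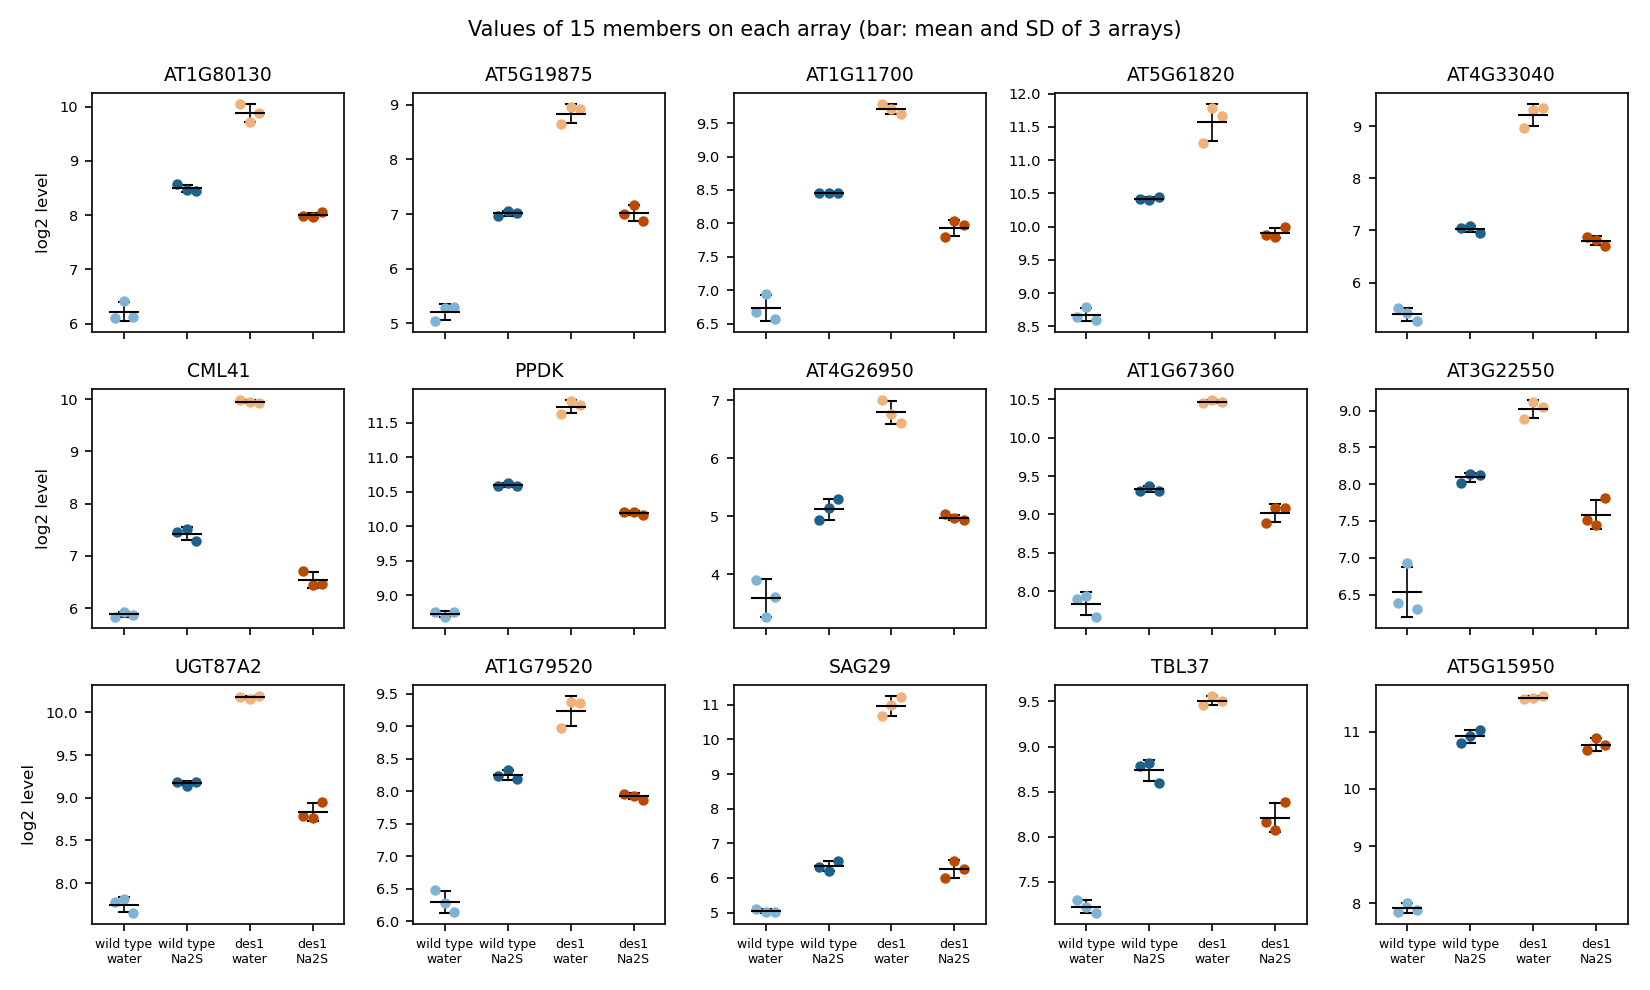
Log2 level on each of the 12 arrays for 15 members, with the mean and SD of the 3 arrays of a group as bars; the vertical axes differ between panels and do not start at 0. Untreated wild type is lowest and untreated des1 highest in every panel. Both treated groups lie nearer to untreated wild type than to untreated des1 in SAG29, CML41, AT4G33040 and AT4G26950. The same holds by a very small margin in AT5G19875.

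Calcium sensors formed a small group of 3 members. CML41, a calmodulin-like protein of plasmodesmata, had 5.83, 5.93 and 5.87 in untreated wild type and 7.46, 7.52 and 7.29 in treated wild type. Its des1 arrays read 9.98, 9.95 and 9.92 with water and 6.71, 6.45 and 6.46 with Na2S. No groups overlapped, and its level with Na2S was 10.6-fold lower in des1 and 2.92-fold higher in wild type. AT2G41410 and AT3G47480, which encode calmodulin-like EF-hand proteins, had smaller des1 differences (-1.04 and -1.56) beside wild type differences of 1.11 and 0.88. The 3 were higher in des1 on average by 0.69 to 1.59, and all 3 passed.

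Enzymes of conjugation and redox chemistry made up 7 members. UGT87A2 and UGT71B1 are UDP-glycosyltransferases, which attach sugars to small molecules, and AT1G01390 encodes another. Their wild type differences were 1.43, 1.61 and 1.15 and their des1 differences -1.34, -0.82 and -1.01. GSTU16, a glutathione transferase, differed by 1.15 and -1.07. AT4G33040 and AT1G03020 encode glutaredoxins, small proteins that use glutathione to reduce disulfides. AT4G33040 read 5.51, 5.42 and 5.26 in untreated wild type, 7.05, 7.08 and 6.96 in treated wild type, 8.97, 9.31 and 9.35 in untreated des1 and 6.88, 6.82 and 6.71 in treated des1. Its treated genotypes lay close together without overlap, whereas AT1G03020 was lower in treated des1 by 0.59. NDB2, an alternative NAD(P)H dehydrogenase of mitochondria, differed by 1.35 and -0.85. All 7 passed the average test (0.66 to 1.79).

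Transport proteins gave 5 members. AT1G79520, of the cation diffusion facilitator family, went from 6.30 ± 0.171 (SD, n = 3) to 8.25 ± 0.0721 in wild type and went from 9.23 ± 0.228 to 7.92 ± 0.0458 in des1. AT3G26590 and AT1G51340 encode MATE-type exporters, AT3G56200 an amino acid transporter and GLR2.7 a glutamate receptor-like channel. Their wild type differences were between 0.81 and 1.56 and their des1 differences between -0.82 and -1.15. All 5 were higher in des1 on average (0.43 to 1.30).

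Regulators of transcription and of protein turnover were also among the members. GIS, a zinc finger protein that promotes trichome formation on flowering stems, had 6.10 ± 0.249 and 7.75 ± 0.107 in wild type without and with Na2S, and 9.02 ± 0.0896 and 7.77 ± 0.0379 in des1. The treated genotypes differed by only 0.01 for GIS and by 0.02 for AT2G28200, another zinc finger protein. AT1G01250, of the AP2/ERF family, and AT1G21000, of the PLATZ family, completed these 4 factors, which all passed (0.66 to 1.67). AT5G41400, AT1G63840 and AT5G24870 encode RING-type ubiquitin ligases, SKP2A an F-box protein that marks cell cycle proteins for removal, and AT4G22820 a stress-associated zinc finger protein. AT5G24870 had the largest wild type difference of these 5 ligase-related members (2.37, beside -1.09 in des1) and AT4G22820 the largest des1 difference (-2.20, beside 0.86 in wild type). All 5 passed (0.92 to 1.47).

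Receptors and signalling enzymes gave 5 members, with wild type differences of 0.82 to 1.42 and des1 differences of -0.88 to -1.33. The gibberellin receptor GID1B differed by 0.87 with Na2S in wild type and by -0.88 in des1, from a dim level of 4.47 ± 0.263 in untreated wild type. AT5G59680 encodes a receptor-like kinase, AT5G57610 a protein kinase, AT5G10740 a protein phosphatase and AT5G58120 an immune receptor of the TIR class. With GID1B their average differences were 0.55 to 1.13, and all 5 passed.

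Lipid and small-molecule enzymes split by which genotype moved more. AT5G15950, an S-adenosylmethionine decarboxylase of polyamine synthesis, read 7.85, 8.01 and 7.89 in untreated wild type and 10.8, 10.93 and 11.02 with Na2S. It read 11.57, 11.58 and 11.62 in untreated des1 and 10.67, 10.89 and 10.76 in treated des1. Its treated groups overlapped close to the untreated des1 level, with a wild type rise of 3.0 beside a des1 fall of 0.82. ARD4, an acireductone dioxygenase that recycles methionine, differed by 1.29 and -0.96. SAL2, a phosphatase related to one that clears a by-product of sulfate use, differed by 0.98 and -1.42. PCME, an isoprenylcysteine methylesterase, differed by 1.24 and -1.22, and AT2G35820, an enzyme of ureide breakdown, by 1.07 and -0.90. AT1G67360, a lipid droplet protein, differed by 1.49 and -1.45. AT5G11650 and AT3G15650, both of the alpha/beta hydrolase fold, leaned opposite ways, with 1.97 and -0.86 for the first and 0.88 and -2.08 for the second. Together with the GDSL esterase gene AT1G28570 all 9 passed the average test.

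Further members with large changes on both sides were AT1G80130 (2.27 in wild type and -1.88 in des1), AT5G19875 (1.81 and -1.82), AT5G61820 (1.74 and -1.66) and TBL37 (1.51 and -1.30), of a family that adds acetyl groups to wall polysaccharides. AT3G22550 (1.56 and -1.43) and AT1G22160 (0.99 and -2.35) both encode FCS-like zinc finger proteins. For AT5G19875 the treated genotypes had the same mean, 7.02, which lay midway between untreated wild type (5.21 ± 0.145) and untreated des1 (8.84 ± 0.171).

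The sizes of both differences were only weakly related. Across the 184 members Pearson's r between both signed differences was 0.104. A larger wild type rise thus went weakly with a smaller des1 fall. This r is a description only, since the members are cut by the rule and read on the same arrays. In 94 members the wild type rise was the larger side and in 90 the des1 fall. There were 21 members with a des1 fall of at least 2 and 21 with a wild type rise of at least 2, and 0 belonged to both. Of 1 gene, the first kind held 11 members, among them SAG29, CML41, AT2G25625 (0.92 and -3.96) and AT4G23680 (1.22 and -3.81). The second kind held 8, among them AT3G28270 (3.32 and -1.22), AT3G24460 (2.41 and -0.86) and AT2G41250 (2.1 and -0.92).

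Since these kinds were defined from the Na2S differences, their treated groups also lay at different places. On a span from untreated wild type (0%) to untreated des1 (100%), in log2 units, treated wild type lay at a median of 56.9% and treated des1 at 45.2% over all members. With a des1 fall of at least 2 the medians were 36.1% and 20.4%. With a wild type rise of at least 2 they were 74.9% and 67.4%. SAG29 lay at 22.0% and 20.4%, and AT5G15950 at 81.7% and 77.8%. AT4G23680 went past the untreated wild type level, with treated des1 at -23.6%.

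**Figure D5:**
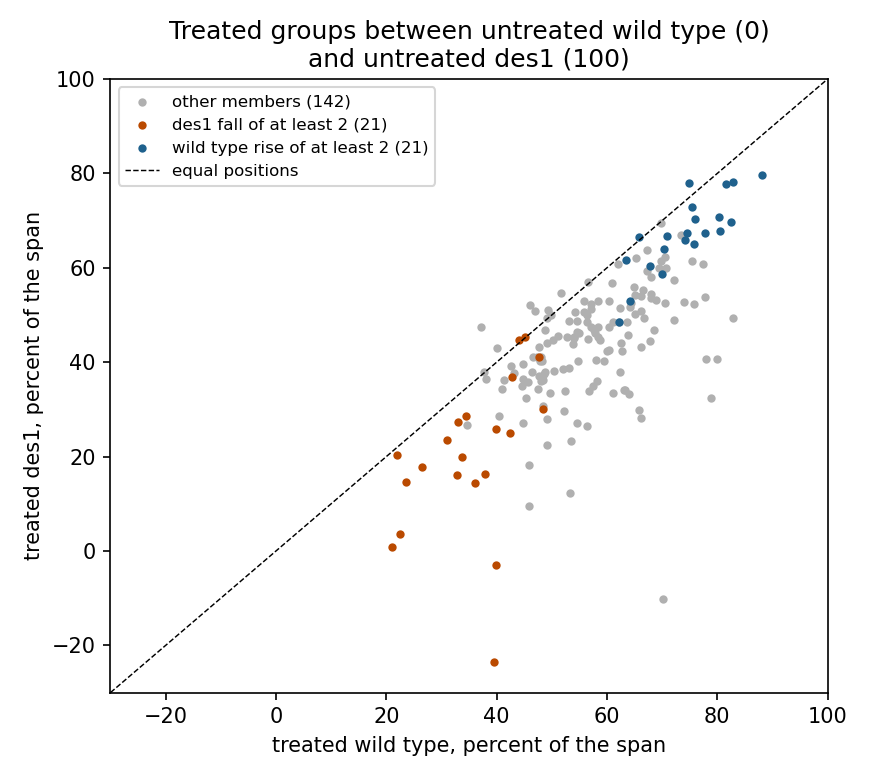
Position of treated wild type (horizontal) and treated des1 (vertical) on the log2 span from untreated wild type (0%) to untreated des1 (100%), for each of the 184 members; colours mark the 21 with a des1 fall of at least 2 and the 21 with a wild type rise of at least 2. Most points lie below the dashed line of equal positions, with medians of 56.9% and 45.2%, and the colours part because they were defined from the same values.

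Under Na2S the genotypes lay closer together in the members than under water. Treated des1 was below treated wild type in 170 of 184 members, beside 12038 of all 22746 probe sets. The members' median difference was -0.26, and 156 members differed by under 0.5 either way. Its quartiles were -0.404 and -0.143 in the members, beside -0.113 and 0.0933 over all probe sets. The typical member thus lay further apart under Na2S than the typical probe set. The 3 treated des1 arrays were all below the 3 treated wild type arrays in 105 members (9.60% of all probe sets) and all above them in 1 (7.28% of all probe sets). This contrast shares its arrays with the rule, so the counts are descriptions. The largest gaps among members of 1 gene were those of AT4G23680 (-1.94), AT2G38180 (-0.95) and CML41 (-0.88).

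The rule was also applied with 1 replicate number left out of all 4 groups, and the left-out arrays were then read. It chose 190 probe sets without replicate 1, of which 188 kept both signs in the left-out arrays and 135 also met the size of the rule. Without replicate 2 it chose 196, of which 196 kept both signs and 129 met the size. Without replicate 3 it chose 194, of which 194 kept both signs and 144 met the size. The medians in the left-out arrays were 1.2 to 1.33 for wild type and -1.15 to -1.26 for des1. These are counts with no test, and the shares of all probe sets that met the same signs or size are not given here.

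The limit of the rule cut through a run of similar genes. Just inside it were AT2G46735 (0.81 in wild type and -0.81 in des1), AT3G56200 (0.81 and -1.15) and AT2G41000 (0.91 and -0.81). Just outside were AT5G54130 (3.18 and -0.80), AT3G07870 (0.80 and -1.09) and AT1G75810 (1.23 and -0.79), where the smaller sides were 0.797, 0.797 and 0.793 before rounding.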

How the data were processed

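The deposited log2 values of 12 ATH1 arrays were used as given. Per the submitters' processing notes the authors made them with RMA in the affy package; versions are not given in the sources used here. RMA compresses differences of dim transcripts, and whether all arrays were processed together is not stated. Of 22810 probe sets deposited, 22746 were tested and 64 controls left out. Of those, 13513 had 1 gene in the platform annotation, 503 several and 8730 none listed; loci came from a TAIR10.1 gene table, for names and gene order only. One model of 4 group means was fitted with limma 3.58.1 (lmFit, eBayes) in R 4.3.3, with Benjamini-Hochberg adjustment over 22746 probe sets and a threshold of 0.05. Errors of differences are limma standard errors. Groups came from the sample labels, and the precision is limited by 3 arrays per group. The fit was tested on simulated data.

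The members and the lists were chosen with earlier results of these data known. Named genes were the 14 members of 1 gene that ranked highest by the smaller of both Na2S effects, the 5 highest and 5 lowest average genotype differences that passed, members on 24 lists of loci, and 3 on each side of the limit. Up to 4 members of a functional class were to be named where at least 3 matched its product words; the annotation's gene synonyms matched at most 2 members in any of the 16 classes. Other names were chosen after their values were seen. Replicate numbers did not pair the arrays (1 of 18 correlations of deviations above 0.1). Alternatives were another scaling (quantile or median), a filter on dim probe sets, a trended robust variance, array weights, a replicate block, probe sets of 1 gene, other limits of the rule, group medians and each array left out.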

Additional observations from a re-analysis of the deposited data

Results flagged for a closer look

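Opposite responses in the genotypes mark 182 of the 184 members, whose 3 Na2S arrays all lay above the 3 water arrays in wild type and all below them in des1. The rule chose the members for this, so the count is a description and the difference between the genotypes was not tested. The 2 members without this separation were psbI, with a des1 water SD of 0.821, and AT3G24460, with a des1 water SD of 0.467; in both the des1 arrays with and without Na2S overlapped.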

How the results depend on the processing

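The number of members follows the limit of the rule: 370 at a limit of 0.6 and 102 at 1, against 184 at 0.8. Group medians gave 192 probe sets, of which 173 were shared, quantile normalization again gave 181 (169 shared), median centring gave 185 (173 shared) and the filter on dim probe sets 183. Leaving out 1 array at a time gave 176 to 196, and 141 of the 184 members were chosen in all 12 such runs. The count of members higher in des1 on average stayed at 182 under both scalings, the trended robust variance and the replicate block; it was 181 without dim probe sets, 183 with array weights and 182 to 183 with single arrays left out, and 0 were called lower in each. Among members of 1 gene 82 were called, and 82 with only such probe sets tested. For the 23 named members, all 437 recomputed average differences kept their direction and their side of the threshold. The rule largely set calls of higher, and some named members were picked by this average difference, so the count is a description. The replicate block changed no call of a named member. The median average difference of all probe sets was 0.0183 with median centring and 0.0054 with quantile normalization, against -0.0017. The number of arrays, 3 per group, limits the precision, and 3 members lay below the lower quartile of all probe sets in untreated wild type, where RMA values are compressed.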

Other observations

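The mirror of the rule, at least 0.8 lower with Na2S in wild type and at least 0.8 higher in des1, held for 154 probe sets. Untreated wild type was their highest group in 153 and untreated des1 their lowest in 153, and on the average genotype difference 152 were lower in des1 and 0 higher (limma adjusted p under 0.05), with a median of -1.10. Over all probe sets 17.1% were called lower and 16.2% higher. The mirror rule largely set this direction wherever the treated genotypes lay close together, so these counts are descriptions.

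Chromosome 1 held 21 of the 84 members of 1 gene (25%, beside 25.5% of all probe sets of 1 gene), chromosome 2 held 16, chromosome 3 held 14, chromosome 4 held 9 (10.7%, beside 14.5%) and chromosome 5 held 23 (27.4%, beside 22.3%). Within 5 gene places of each other lay 1 pair, AT5G43150 and AT5G43180, with 4 protein-coding genes between them. A second probe set was listed for AT3G26590, and it was dim (3.91 to 4.28 in the group means) and differed by 0.35 with Na2S in wild type and by -0.20 in des1.

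Control probe sets for ubiquitin moved in part with the members, more clearly in des1 than in wild type. The 3′ control had 12.92 ± 0.14 (SD, n = 3) in untreated wild type, 13.04 ± 0.0557 in treated wild type, 13.53 ± 0.0651 in untreated des1 and 13.00 ± 0.0551 in treated des1. The 5′ control had 11.14 ± 0.121, 11.57 ± 0.165, 12.21 ± 0.169 and 11.48 ± 0.0889 in the same order. The middle control had 10.65 ± 0.0872, 10.66 ± 0.19, 11.31 ± 0.184 and 10.67 ± 0.174, almost unchanged with Na2S in wild type. The control for 25S rRNA had 12.51 ± 0.0907, 12.25 ± 0.3, 11.42 ± 0.523 and 12.38 ± 0.168. Actin and GAPDH 3′ controls differed by at most 0.33 between any groups. The part of RNA composition in the members' values was not tested.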
